A study of Mus musculus with 7 samples.

Results

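Blood vessels of mouse hindlimb tendon were followed through 10 genes, picked by gene symbol: the endothelial surface genes Pecam1 and Cdh5, the receptor genes Kdr, Flt1 and Tek, and the ligand genes Vegfa, Vegfb, Vegfc, Angpt1 and Angpt2. All 10 were found among the 44818 features of the RNA-seq tables, and all 10 passed the filter on low counts that left 16028 genes for testing. The animals were mice of C57BL/6 background, and the labels give no age, sex, transgene or deletion. The injured mice had received a partial-thickness scald burn (a block at 60 °C held for 18 s on 30% of the body surface) together with transection of the Achilles tendon of the left leg. The tenotomy group (n = 2) was the cut tendon 3 weeks after injury. The contralateral group (n = 3) came from the uncut right leg of such mice at the same time, so these animals carried the burn and the distant tenotomy as well. The uninjured group (n = 2) was tendon of wild-type mice with neither injury, and for it the labels give no time point. The labels do not say which libraries came from 1 animal or whether animals were pooled, so p-values measure the spread between these libraries, which may be partly technical. The study concerned the kinase TAK1 and heterotopic ossification, the formation of cartilage and bone in soft tissue.

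VEGF ligands are secreted proteins that bind receptor tyrosine kinases on endothelial cells and drive vessel growth, vessel permeability and endothelial survival. VEGF-A signals mainly through the receptor encoded by Kdr, while the receptor encoded by Flt1 binds VEGF-A, VEGF-B and placental growth factor, and also exists as a soluble form that captures ligand. The angiopoietins act on the receptor encoded by Tek: angiopoietin-1 stabilises vessels, and angiopoietin-2, released by endothelial cells themselves, opposes it in many settings. Healthy tendon is sparsely vascular tissue, whereas skeletal muscle, which adjoins the tendon, is rich in capillaries and is itself a source of VEGF-A and VEGF-B.

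Total estimated counts ranged from 25927171 to 36725106 per library. The 5 features with the largest counts over all libraries held between 76.4% and 81.4% of them, which left 4934057 to 8375626 counts for all others. Levels of tissue marker genes differed between the libraries. The summed level of 16 skeletal muscle markers was 24251 to 26895 CPM (counts scaled to a common library total with edgeR's TMM factors) in the contralateral libraries, 2111 and 2120 CPM in the tenotomy libraries, and 2689 and 18252 CPM in uninjured replicates 1 and 2. Macrophage and leukocyte markers summed to 34.2 to 41.7 CPM, to 130 and 133 CPM, and to 134 and 41.6 CPM in the same order. Thus the library labelled uninjured replicate 1 lay next to the tenotomy libraries on both lists and uninjured replicate 2 near the contralateral ones, and results that rest on this group are given with and without each. The tendon gene Tnmd was detected in every library, from 5.41 CPM in contralateral replicate 3 to 28.5 CPM in tenotomy replicate 1, and the tendon transcription factor Scx from 0.464 to 1.73 CPM. In bulk tissue, fewer cells of a type and less RNA per cell cannot be told apart.

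At the tenotomy site Kdr, Flt1, Vegfa and Vegfb fell against the contralateral tendon and Angpt2 rose, while Pecam1, Cdh5, Tek, Vegfc and Angpt1 did not pass the test. With edgeR's quasi-likelihood test on all 7 libraries and Benjamini-Hochberg adjustment over 16028 genes, 5 of the 10 genes were called at an adjusted p under 0.05, compared with 29.0% of all genes tested. One call of the 5 was higher and 4 were lower, where 13.6% of all genes were called higher and 15.4% lower. The libraries of both groups did not overlap for 1 gene on the higher side (Angpt2) and 6 on the lower side (Cdh5, Kdr, Flt1, Vegfa, Vegfb and Angpt1), compared with 63.7% of all genes (31.9% higher and 31.8% lower). In a fit of only the 5 tenotomy and contralateral libraries, Cdh5 joined the calls, which made 6 of 10 (1 higher and 5 lower) against 45.9% of all genes (22.0% higher and 24.0% lower). Leaving out any 1 of these 5 libraries from the fit of all 7 left 0 calls, whereas in the fit of only these libraries 4 to 6 of the 10 genes were called on leaving out each, with Flt1, Vegfa, Vegfb and Kdr among them every time. The plot of levels by library shows each value.

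**Figure D1:**
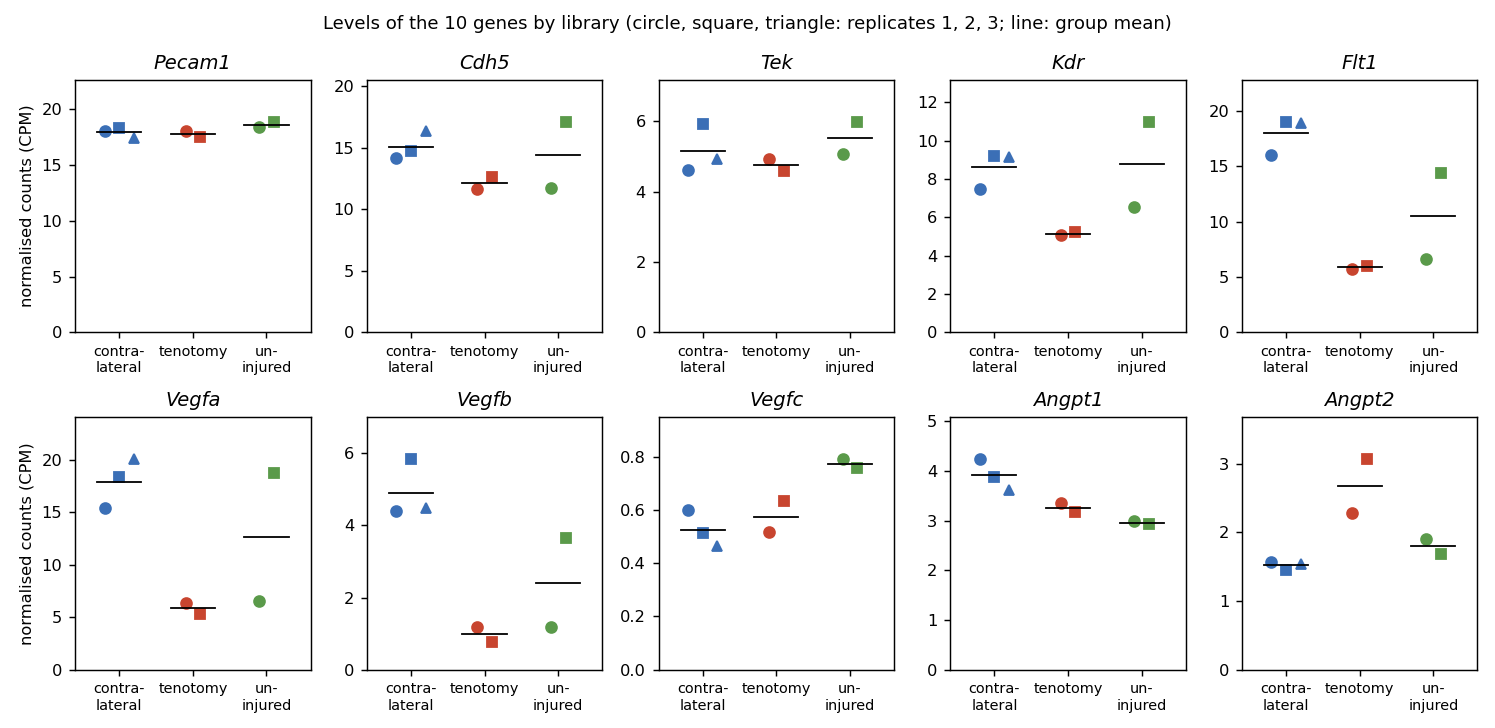
Normalised counts (CPM) of the 10 genes in the 7 libraries, by group, with replicates 1, 2 and 3 as circle, square and triangle and the group mean as a line; each axis starts at 0 and has its own scale. Flt1, Vegfa and Vegfb are low in both tenotomy libraries and in uninjured replicate 1, Pecam1 is near 18 CPM throughout, and Angpt2 is highest in the tenotomy libraries.

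Pecam1 encodes CD31, an adhesion molecule at contacts between endothelial cells that is also present on platelets and some leukocytes. Its level was 18.1, 18.3 and 17.4 CPM in the contralateral libraries, 18.0 and 17.5 CPM in the tenotomy libraries, and 18.4 and 18.9 CPM in the uninjured libraries. All 7 values lay between 17.4 and 18.9 CPM, and the tenotomy range lay inside the contralateral one. The log2 fold change from contralateral to tenotomy was -0.01 ± 0.14 (SE) with an adjusted p of 0.953 (edgeR). The gene, ENSMUSG00000020717, lies on the minus strand of chr11:106654217-106750628 of GRCm38.

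Cdh5 encodes VE-cadherin, the adherens junction protein of endothelium (ENSMUSG00000031871, chr8:104101625-104144511, plus strand). It measured 14.2, 14.7 and 16.4 CPM in the contralateral tendons, 11.6 and 12.6 CPM in the cut tendons, and 11.7 and 17.1 CPM in the uninjured ones. Both tenotomy libraries were under all 3 contralateral libraries, and the uninjured libraries lay on either side of them. The log2 fold change was -0.31 ± 0.19 (SE), which did not pass the test in the fit of all libraries (edgeR adjusted p = 0.255) and did pass in the fit of only both injured-mouse groups (adjusted p = 0.0182).

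Tek encodes TIE2, the angiopoietin receptor (ENSMUSG00000006386, chr4:94739289-94874976, plus strand). Its 3 contralateral values were 4.61, 5.92 and 4.92 CPM, its tenotomy values 4.92 and 4.60 CPM, and its uninjured values 5.07 and 5.99 CPM. These ranges overlapped, and the log2 fold change from contralateral to tenotomy was -0.11 ± 0.16 (SE; edgeR adjusted p = 0.637).

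The wider set of 30 endothelial identity genes was all tested and none was at 0 in any library. Their summed level was 204 to 230 CPM in the contralateral libraries, 196 and 190 CPM at the tenotomy site, and 207 and 238 CPM in the uninjured tendons. In the tenotomy site 3 of the 30 rose, 2 fell and 25 were not called, where 13.6% of all genes were called higher and 15.4% lower. The median log2 fold change was -0.16, where the median of all genes was -0.001. Gpihbp1, which anchors lipoprotein lipase to the capillary wall, fell from levels between 2.33 and 2.81 CPM to 0.517 and 0.767 CPM (4.0-fold lower, edgeR adjusted p = 0.0181). Its uninjured values were 0.934 and 2.68 CPM. Ptprb, the endothelial phosphatase VE-PTP that acts on TIE2 and VE-cadherin, fell by 0.86 on the log2 scale (adjusted p = 0.0319). The endothelial surface genes Clec14a and Ecscr rose by 0.98 and 0.95 (adjusted p = 0.0363 and 0.0467). Among genes read whatever their values, Tie1 (-0.28), Emcn (0.03) and Erg (-0.13) had adjusted p-values of 0.211, 0.937 and 0.812. In the fit of only both injured-mouse groups, 4 of the 30 were higher and 8 lower, against 22.0% and 24.0% of all genes.

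Kdr encodes VEGFR2, the main signalling receptor for VEGF-A (ENSMUSG00000062960, chr5:75932827-75978458, minus strand). Contralateral libraries held 7.50, 9.22 and 9.12 CPM, tenotomy libraries 5.06 and 5.23 CPM, and uninjured libraries 6.54 and 11 CPM. The tenotomy libraries were the lowest of all 7. Kdr was 1.68-fold lower at the tenotomy site (log2 fold change -0.74 ± 0.23, SE; edgeR adjusted p = 0.0484). This call sat at the threshold: it was lost with upper-quartile scaling (adjusted p = 0.0573) and with DESeq2 (adjusted p = 0.0596), while the fit of only both injured-mouse groups gave an adjusted p of 0.000227.

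Flt1 encodes VEGFR1 (ENSMUSG00000029648, chr5:147561604-147726011, minus strand). It measured 16.1, 19.0 and 19.0 CPM in the contralateral tendons against 5.71 and 6.03 CPM in the cut tendons. The uninjured libraries were split, with 6.65 CPM in replicate 1 and 14.4 CPM in replicate 2, so that replicate 1 lay near the tenotomy values and replicate 2 just under the contralateral ones. Flt1 was 3.07-fold lower at the tenotomy site than in the contralateral tendon (log2 fold change -1.62 ± 0.31, SE; edgeR adjusted p = 0.0167).

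Since Flt1, Kdr and Tek are read from endothelium in large part, their estimated counts were also set against those of Cdh5 within each library, a ratio that does not depend on the library total. Flt1 per Cdh5 was 1.13, 1.29 and 1.16 in the contralateral libraries and 0.491 and 0.478 in the tenotomy libraries, with 0.568 and 0.843 in the uninjured ones. For Kdr per Cdh5 the values were 0.528, 0.627 and 0.558 against 0.435 and 0.414, with 0.558 and 0.642 in the uninjured libraries. Both ratios were lower in every tenotomy library than in every contralateral one (two-sided exact permutation p = 0.2 each, the smallest that 2 against 3 libraries allow). Tek per Cdh5 overlapped, at 0.325, 0.402 and 0.301 against 0.423 and 0.364 (exact permutation p = 0.4). Kdr per Flt1 was 0.466 to 0.484 in the contralateral libraries and 0.886 and 0.867 in the tenotomy libraries, again with no overlap (exact permutation p = 0.2). Both uninjured libraries, at 0.984 and 0.761, were above the contralateral ones too. These genes are not expressed in endothelium alone, and the share of other cells in each ratio was not tested.

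**Figure D2:**
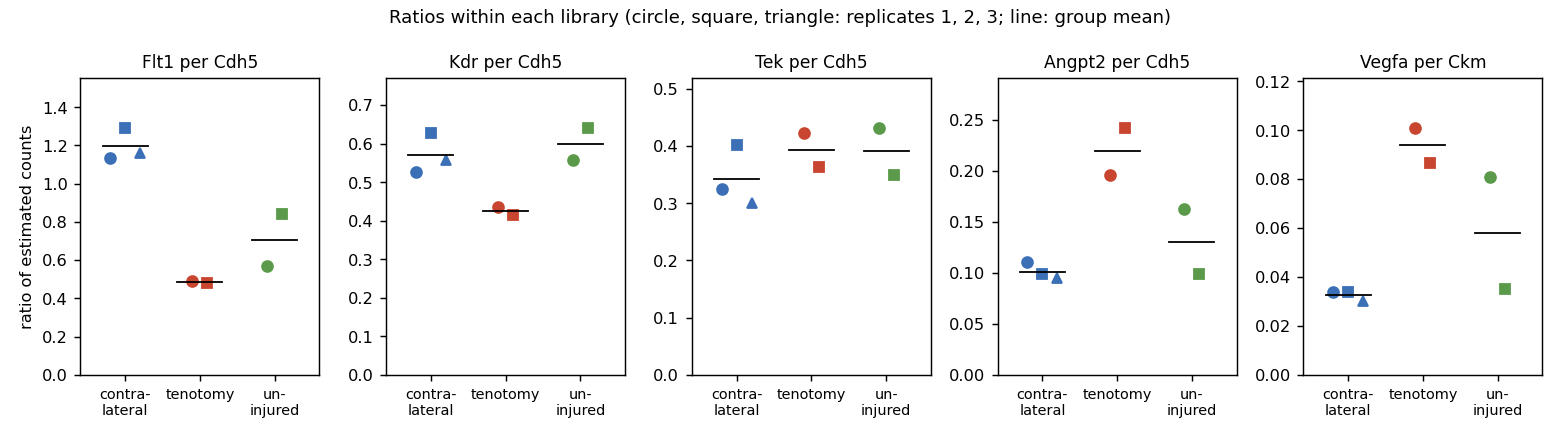
Ratios of estimated counts within each library, by group, with replicates 1, 2 and 3 as circle, square and triangle and the group mean as a line; axes start at 0. Flt1 and Kdr per Cdh5 are lower in both tenotomy libraries than in all contralateral ones, Tek per Cdh5 overlaps, and Angpt2 per Cdh5 and Vegfa per Ckm are higher.

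Flt1 has 2 annotated coding transcripts, a long one of 1333 residues that spans the membrane and a short one of 688 residues of the soluble kind. The short transcript held 42.7%, 44.6% and 39.3% of Flt1 estimated counts in the contralateral libraries and 46.2% and 42.2% in the tenotomy libraries. Its share in the uninjured libraries was 30.0% (95% Wilson interval 24.1% to 37.2%) and 39.7% (35.0% to 44.4%), intervals that cover counting error only. Tenotomy and contralateral shares overlapped and their means differed by 2.00 percentage points, 44.2% ± 2.88 (SD, n = 2) against 42.2% ± 2.73 (SD, n = 3), with a two-sided exact permutation p of 0.6. Measured by TPM (the deposited transcript abundance per length) the difference was 7.78 points and the groups did not overlap, at 41.1% and 40.3% against 34.5%, 35.3% and 29.0% (exact permutation p = 0.2). The fall of Flt1 was present in both forms: long-form counts were 226 to 358 in the contralateral and 97.6 and 97.4 in the tenotomy libraries, and short-form counts 183 to 299 and 96.9 and 76.4.

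Vegfa encodes VEGF-A, the ligand of both VEGFR1 and VEGFR2 (ENSMUSG00000023951, chr17:46016993-46032369, minus strand). Its levels were 15.4, 18.3 and 20.0 CPM in the contralateral tendons and 6.36 and 5.33 CPM at the tenotomy site, a range that the contralateral libraries did not reach. Uninjured replicate 1, at 6.50 CPM, was next to the tenotomy libraries, and uninjured replicate 2, at 18.7 CPM, was among the contralateral ones. Vegfa was 3.06-fold lower in the tenotomy group (log2 fold change -1.61 ± 0.41, SE; edgeR adjusted p = 0.0258). The estimated counts moved erratically between Vegfa isoforms (isoform 202 held 0.399 to 358 counts), so the fold change is read from the gene sum, and its levels per length, given further on, are less certain.

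Vegfb encodes VEGF-B, a ligand of VEGFR1 known from oxidative muscle, heart and fat (ENSMUSG00000024962, chr19:6982473-6987651, minus strand). It fell furthest of the 10 genes, from 4.38, 5.83 and 4.48 CPM in the contralateral libraries to 1.20 and 0.767 CPM in the tenotomy libraries. Uninjured replicate 1, at 1.19 CPM, lay within the tenotomy range, and replicate 2, at 3.65 CPM, lay under all contralateral libraries. The fold change was 4.93-fold lower (log2 fold change -2.30 ± 0.46, SE; edgeR adjusted p = 0.0167), from 23 to 44 estimated counts in the tenotomy libraries and 117 to 205 in the contralateral ones.

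Vegfc encodes VEGF-C, which acts chiefly on lymphatic endothelium through VEGFR3 (ENSMUSG00000031520, chr8:54077606-54187096, plus strand). It was the scarcest member, with 15 to 22 counts per library. Levels of 0.600, 0.512 and 0.464 CPM in the contralateral and 0.517 and 0.633 CPM in the tenotomy libraries overlapped, and both uninjured libraries (0.790 and 0.757 CPM) were above all others. The log2 fold change of 0.13 ± 0.27 (SE) did not pass (edgeR adjusted p = 0.781), and a change of this size was not detectable at this depth.

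The promoters of the genes that fell are printed because Vegfa, Flt1 and Kdr are textbook members of the oxygen-responsive and endothelial programmes, and because they fell together here. Of the 10 genes, 6 matched the RefSeq promoter table (build GRCm38.p6), and the 250 bases before the start were searched on both strands for the core of the hypoxia response element, ACGTG or GCGTG, capitals below, which reads CACGT or CACGC on the printed strand where the match is on the other one. Sequences run 5′ to 3′ on the gene's strand, the minus strand for all of them. They are Kdr at chr5:75978459-75978705 (247 bases outside the annotated gene), Flt1 at chr5:147726012-147726261, Vegfa at chr17:46032378-46032627 and Vegfb at chr19:6987652-6987901.
Kdr: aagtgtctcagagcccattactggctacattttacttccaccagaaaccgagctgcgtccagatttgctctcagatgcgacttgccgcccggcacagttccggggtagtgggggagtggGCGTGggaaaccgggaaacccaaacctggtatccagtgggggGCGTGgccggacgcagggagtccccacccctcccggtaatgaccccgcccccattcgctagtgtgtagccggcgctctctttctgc
Flt1: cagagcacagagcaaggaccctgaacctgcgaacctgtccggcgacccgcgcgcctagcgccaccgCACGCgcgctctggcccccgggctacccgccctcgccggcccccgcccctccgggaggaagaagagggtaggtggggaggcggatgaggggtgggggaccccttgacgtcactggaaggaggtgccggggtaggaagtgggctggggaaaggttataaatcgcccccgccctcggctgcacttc
Vegfa: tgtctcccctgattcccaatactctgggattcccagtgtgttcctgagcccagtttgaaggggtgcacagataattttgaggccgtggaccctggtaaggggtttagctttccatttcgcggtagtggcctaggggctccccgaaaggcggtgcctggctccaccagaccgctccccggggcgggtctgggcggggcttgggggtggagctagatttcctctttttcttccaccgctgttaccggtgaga
Vegfb: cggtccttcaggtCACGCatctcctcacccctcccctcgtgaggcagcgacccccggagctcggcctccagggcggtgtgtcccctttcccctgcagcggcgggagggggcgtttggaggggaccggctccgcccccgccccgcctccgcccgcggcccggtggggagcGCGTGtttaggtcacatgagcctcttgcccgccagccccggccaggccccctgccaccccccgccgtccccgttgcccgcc

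The core was present at 2 places in the Kdr window, 131 and 89 bases upstream, at 1 place in Flt1, 184 bases upstream, and at 2 places in Vegfb, 237 and 81 bases upstream. The Vegfa window printed held none. A second RefSeq start of Vegfa, whose window lies inside the annotated gene (chr17:46025164-46025413, sequence not printed), had the core at 2 places, 218 and 211 bases upstream. The windows of Tek and Vegfc, genes that did not pass the test, held none. Of 32851 promoters of the same length, 38.6% held it, so these matches are a description of the letters and not sites or a cause. The ETS core GGAAG was at 3 places in the Flt1 window, at 1 in Kdr and at 1 in each Vegfa window (64.1% of all promoters held at least 1). The Vegfb, Tek and Vegfc windows held none. The GC box GGGCGG was in every window but that of Tek (32.7% of all promoters). Only the Flt1 window held a TATAAA, 31 bases upstream (12.4% of all promoters).

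Angpt1 encodes angiopoietin-1, made mostly by cells around the vessel (ENSMUSG00000022309, chr15:42424723-42676977, minus strand). It measured 4.24, 3.87 and 3.62 CPM in the contralateral, 3.35 and 3.17 CPM in the tenotomy and 2.98 and 2.92 CPM in the uninjured libraries. The 3 groups did not overlap and followed that order, but the log2 fold change from contralateral to tenotomy, -0.26 ± 0.14 (SE), did not pass (edgeR adjusted p = 0.195). The antisense gene Gm17473 overlaps its exons over 737 bases and had 0 to 3.1 counts per library.

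Angpt2 encodes angiopoietin-2 (ENSMUSG00000031465, chr8:18690263-18741562, minus strand) and was the only one of the 10 genes called higher at the tenotomy site. Contralateral libraries held 1.57, 1.45 and 1.55 CPM, and tenotomy libraries 2.28 and 3.07 CPM, above all other libraries. Uninjured libraries were between them, at 1.90 and 1.69 CPM. The rise was 1.75-fold (log2 fold change 0.81 ± 0.18, SE; edgeR adjusted p = 0.0193) and rested on 42 to 92 counts per library. It was lost with length-scaled TPM (log2 fold change 0.50, adjusted p = 0.164). Angpt2 per Cdh5 was 0.111, 0.0987 and 0.0945 in the contralateral and 0.196 and 0.243 in the tenotomy libraries (exact permutation p = 0.2).

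Because Angpt1 and Angpt2 compete for the same receptor, their levels per length were compared within each library. The ratio of Angpt2 to Angpt1 TPM was 0.704, 0.654 and 0.720 in the contralateral libraries and 1.15 and 1.18 in the tenotomy libraries, so over all transcripts Angpt1 was in excess in the former and Angpt2 slightly in excess in the latter. The log2 ratio averaged -0.53 ± 0.07 (SD, n = 3) and 0.22 ± 0.02 (SD, n = 2), a difference of 0.75 (two-sided exact permutation p = 0.2, the smallest possible). In the uninjured libraries the ratio was 1.32 and 0.913. When only coding transcripts were summed the difference was 1.12 and the tenotomy ratios were 0.785 and 1.18, against 0.410, 0.428 and 0.490 in the contralateral and 0.697 and 0.664 in the uninjured libraries. The tenotomy and contralateral libraries still did not overlap, but an excess of Angpt2 was then present in 1 tenotomy library and in no other.

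**Figure D3:**
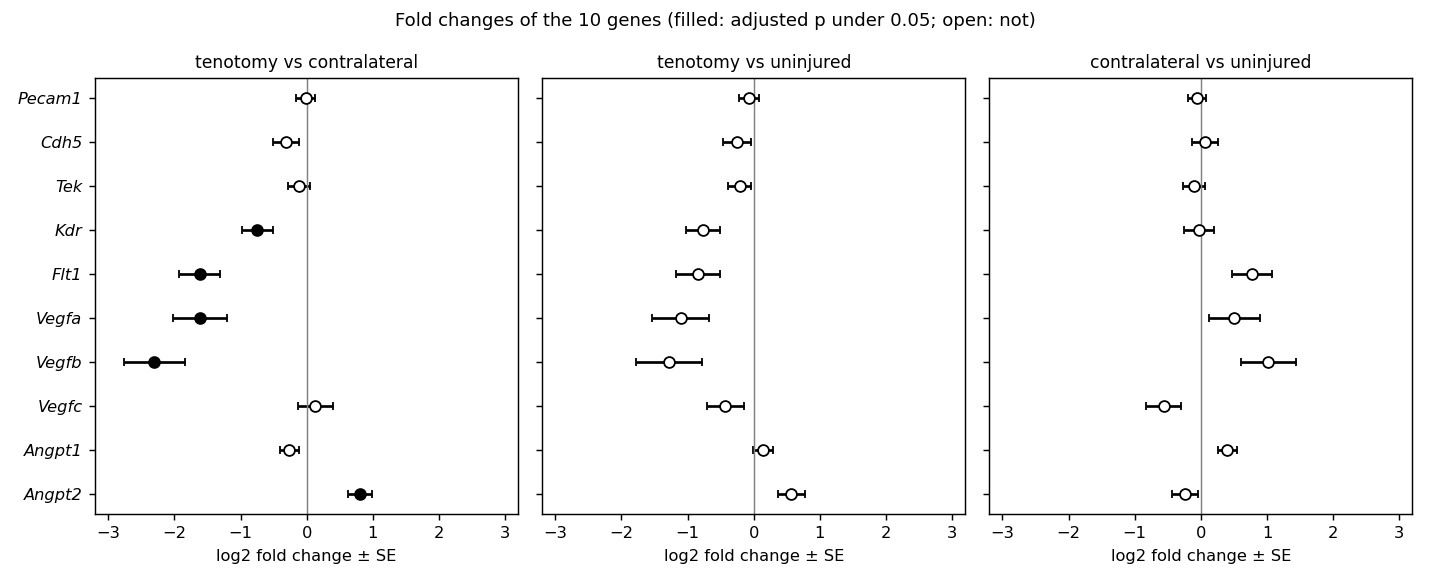
Log2 fold changes ± SE (edgeR, all 7 libraries in 1 fit) of the 10 genes in the 3 comparisons, filled where the adjusted p is under 0.05. Calls appear in tenotomy against contralateral only (Kdr, Flt1, Vegfa and Vegfb lower, Angpt2 higher); the comparisons share groups and are not independent.

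Against the uninjured tendon, which asks how the injured site differs from animals with no injury, 0 of the 10 genes were called, as were 0% of all genes (smallest edgeR adjusted p over all genes 0.261). At an unadjusted p under 0.05 there were 5 genes, Kdr, Flt1, Vegfa, Vegfb and Angpt2, compared with 10.9% of all genes. The log2 fold changes were -0.77 for Kdr, -0.84 for Flt1, -1.11 for Vegfa, -1.29 for Vegfb and 0.57 for Angpt2. Tenotomy and uninjured libraries did not overlap for 8 of the 10 genes (2 higher and 6 lower, where 40.5% of all genes did not overlap, 20.1% higher and 20.4% lower), but uninjured replicate 1 was close to the tenotomy values for Flt1, Vegfa and Vegfb. Without that replicate the uninjured group is 1 library, which is assumed to vary like the libraries of the other groups, and 5 genes were called lower at the tenotomy site, compared with 14.9% of all genes: Vegfa (-1.67, edgeR adjusted p = 2.22e-05), Flt1 (-1.30, 5.03e-05), Kdr (-1.09, 0.000269), Vegfb (-1.86, 0.000409) and Cdh5 (-0.50, 0.0170). Without replicate 2, again with 1 uninjured library, none was called, and the log2 fold changes of Vegfa, Flt1 and Vegfb were -0.15, -0.18 and -0.25.

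The intact tendon of injured mice was also set against that of uninjured mice, the comparison in which a distant effect of burn and tenotomy would be read. Again 0 of the 10 genes were called, as were 0% of all genes (smallest edgeR adjusted p 0.123), and 3 had an unadjusted p under 0.05, compared with 19.2% of all genes. These were Flt1 (log2 fold change 0.77), Vegfb (1.02) and Angpt1 (0.40), all higher in the contralateral tendon. Libraries did not overlap for 6 of the 10 genes (3 higher and 3 lower) and for 35.5% of all genes (18.9% higher and 16.6% lower). Without uninjured replicate 2, which leaves as the only uninjured library the one that lay next to the tenotomy libraries, with the spread taken from the other groups, Flt1 (1.44), Vegfa (1.46) and Vegfb (2.05) were called higher in the contralateral tendon, compared with 18.0% of all genes called higher. Without replicate 1, also against 1 uninjured library, none was called, and the log2 fold change of Vegfa was -0.06.

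Per length, by TPM summed over all transcripts of a gene, Vegfa had the highest level of the 10 in the contralateral libraries, 2.24 ± 0.34 TPM (SD, n = 3). It was followed by Pecam1 at 0.953 ± 0.154 TPM, Vegfb at 0.759 ± 0.169 TPM, Cdh5 at 0.565 ± 0.038 TPM and Flt1 at 0.536 ± 0.058 TPM. The libraries of Pecam1 and Vegfb overlapped, as did those of Cdh5 and Flt1. The lowest Vegfb value (0.602 TPM) was just under the highest Flt1 value (0.603 TPM), so these overlapped too. The lowest Vegfb value and the highest Cdh5 value (0.596 TPM) nearly met. Tek, Kdr, Angpt1, Angpt2 and Vegfc came after them, from 0.241 ± 0.070 TPM down to 0.0459 ± 0.0110 TPM, with overlap between Tek and Kdr and between Angpt1 and Angpt2. In the tenotomy libraries Pecam1 was first, at 0.895 ± 0.081 TPM (SD, n = 2), ahead of Vegfa at 0.714 ± 0.035 TPM, Cdh5 at 0.445 ± 0.061 TPM and Tek at 0.182 ± 0.051 TPM, and Vegfb had dropped to 0.136 ± 0.030 TPM, level with Flt1 (0.144 ± 0.010), Kdr (0.131 ± 0.012) and Angpt2 (0.129 ± 0.007). The tenotomy values of Tek (0.146 and 0.218 TPM) overlapped those of Vegfb (0.157 and 0.1145 TPM) and of Flt1 (0.137 and 0.151 TPM). The uninjured libraries gave 1.64 ± 0.70 TPM for Vegfa and 1.04 ± 0.002 TPM for Pecam1 (SD, n = 2). Vegfa has short non-coding transcripts that raise a level per length, and its TPM depend on the uncertain split between isoforms. With coding transcripts alone it was at 0.862 to 0.969 TPM in the contralateral libraries, still first, and it came after Pecam1 and Cdh5 in both tenotomy libraries, at 0.241 and 0.178 TPM.

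Partners of the 2 pathways gave a mixed picture. Of 17 listed, 15 were tested, and 4 rose and 1 fell at the tenotomy site, where 13.6% of all genes were called higher and 15.4% lower. The gene that fell was Ptprb, already counted among the endothelial identity genes. The lists share other genes as well, such as Tie1 with that list and Flt4 with the lymphatic genes, so their counts are not independent. The median log2 fold change of the 15 was 0.12. Nrp2, a co-receptor for VEGF-C and semaphorins, rose from 8.02, 7.46 and 7.27 CPM to 15.0 and 16.4 CPM (2.07-fold, edgeR adjusted p = 0.0167), and was 14.7 and 10.4 CPM in the uninjured libraries. Aplnr, the apelin receptor of sprouting endothelium, measured 1.35, 2.22 and 2.23 CPM against 6.23 and 6.23 CPM (log2 fold change 1.68, adjusted p = 0.0167). In the uninjured libraries Aplnr was 6.18 and 3.65 CPM, so replicate 1 was level with the tenotomy site. Its ligand gene Apln rose by 1.81 (adjusted p = 0.0167) from 5 to 10 counts to 33 and 27 counts, with 11 and 18 counts in the uninjured libraries. Sema3e, a ligand of plexin D1, rose by 0.98 (adjusted p = 0.0324). Its uninjured values, 1.40 and 1.07 CPM, were near its tenotomy values, 1.20 and 1.37 CPM. Not called were Vegfd (0.47, adjusted p = 0.173), Flt4, the VEGF-C receptor gene (0.06, 0.812), and Nrp1, the co-receptor of VEGFR2 (0.12, 0.552). Pgf, the placental growth factor gene, had 3 to 10 counts and was not tested. In the fit of only both injured-mouse groups, 6 of the 15 partners were higher and 3 lower, against 22.0% and 24.0% of all genes.

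Lists for neighbouring cell types and programmes describe the tissue in which these genes were read. The counts of each list stand against 13.6% of all genes called higher and 15.4% lower in the fit of all libraries. In the fit of only both injured-mouse groups these shares were 22.0% and 24.0%. Among 14 arterial and venous genes 3 rose, the leukocyte adhesion genes Sele (2.27), Vcam1 (1.78) and Icam1 (1.46). These are induced on activated endothelium, and Vcam1 and Icam1 are made by other cells too. Sele rested on 1, 8 and 7 counts in the contralateral and 29 and 26 counts in the tenotomy libraries. Vcam1 was 4.57 and 4.50 CPM in the tenotomy libraries, and 4.99 and 1.20 CPM in uninjured replicates 1 and 2. For Icam1 these values were 2.42 and 1.93 CPM, and 2.44 and 0.895 CPM. With only both injured-mouse groups fitted, 5 of the 14 were higher and 1 lower. Of 7 lymphatic genes only Pdpn was called (2.30, higher), a gene that fibroblasts also express, while Prox1 (-0.29, edgeR adjusted p = 0.213) and Lyve1 (-0.56, 0.0737) were not. In the fit of only both injured-mouse groups 3 of the 7 were higher (Pdpn, Reln and Ccl21a) and 1 lower (Lyve1, adjusted p = 0.0285). Of 11 mural cell genes tested, 5 fell, among them the contractile genes Cnn1 (-2.62) and Myh11 (-2.24) and the pericyte channel gene Abcc9 (-1.80), and 2 rose, the pericyte and fibroblast receptor gene Pdgfrb (0.92) and Cspg4 (1.08). The inhibitors of vessel growth rose in 8 of 12 cases (median 1.20), including the thrombospondin genes Thbs2 (2.74) and Thbs1 (2.61) and the endostatin precursor Col18a1 (1.82). Cnmd, which encodes chondromodulin, was also called, from 1 to 3 counts in the contralateral libraries to 62 and 47 counts. None of the 12 was called lower in the fit of all libraries, and 2 were, Timp3 and Spry4, in the fit of only both injured-mouse groups, with 8 higher. Summed levels of the inhibitors were 427 and 440 CPM at the tenotomy site, and 398 and 191 CPM in uninjured replicates 1 and 2. For mural cell genes these sums were 133 and 135 CPM, and 143 and 214 CPM. For arterial and venous genes they were 35.5 and 38.5 CPM, and 40.4 and 33.7 CPM.

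The oxygen-sensing list went with Vegfa in direction: of 16 genes tested 6 fell and 1 rose, with a median log2 fold change of -0.73. Of all genes, 15.4% were called lower and 13.6% higher. Egln3 (-3.64), Bnip3 (-2.31) and Egln1 (-1.87) fell, as did Epas1 (-1.28), which encodes HIF-2α and is prominent in endothelium. The fall of Egln3 was from 63, 136 and 148 counts in the contralateral to 8 and 11 counts in the tenotomy libraries. Hif1a, which encodes HIF-1α, rose by 1.60 (edgeR adjusted p = 0.0204). In the fit of only both injured-mouse groups 11 of the 16 were lower and 1 higher, against 24.0% and 22.0% of all genes. The summed level of the list was 262 to 331 CPM in the contralateral libraries and 142 CPM in both tenotomy libraries. It was 139 CPM in uninjured replicate 1 and 277 CPM in replicate 2. The muscle marker sum was low in the same libraries, and the part of tissue makeup in these falls was not tested.

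All 16 skeletal muscle genes fell (median -3.35), 4 of 9 adipose genes fell and none rose (median -1.38), and 9 of 11 macrophage and leukocyte genes (median 1.98), 8 of 10 cartilage genes (median 4.49) and 6 of 7 proliferation genes (median 2.66) rose. Of 5 erythroid genes 2 rose (median 0.50). Of all genes, 13.6% were called higher and 15.4% lower. In the fit of only both injured-mouse groups all 9 adipose genes were lower and 4 of the 5 erythroid genes higher. That fit called 24.0% of all genes lower and 22.0% higher. Cartilage markers summed to 133 CPM in uninjured replicate 1 and 48.9 CPM in replicate 2, with 324 and 327 CPM in the tenotomy libraries. Proliferation markers summed to 12.8 and 3.10 CPM, with 16.2 and 15.0 CPM in the tenotomy libraries. Uninjured replicate 1, low in Vegfa, Vegfb and Flt1, was also low in muscle and adipose markers (2689 and 156 CPM summed, against 18252 and 531 CPM in replicate 2). Levels of Vegfa, Vegfb and Flt1 thus moved with muscle and adipose markers across the 7 libraries, and the part of tissue makeup in the falls was not tested. Vegfa fell less than the muscle gene Ckm (creatine kinase), which fell by 3.15 on the log2 scale. Vegfa counts per Ckm count were 0.0338, 0.0338 and 0.0303 in the contralateral, 0.101 and 0.0867 in the tenotomy, and 0.0811 and 0.0350 in the uninjured libraries. Any gene that fell less than Ckm is higher per Ckm, so this ratio does not test the part of tissue makeup.

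**Figure D4:**
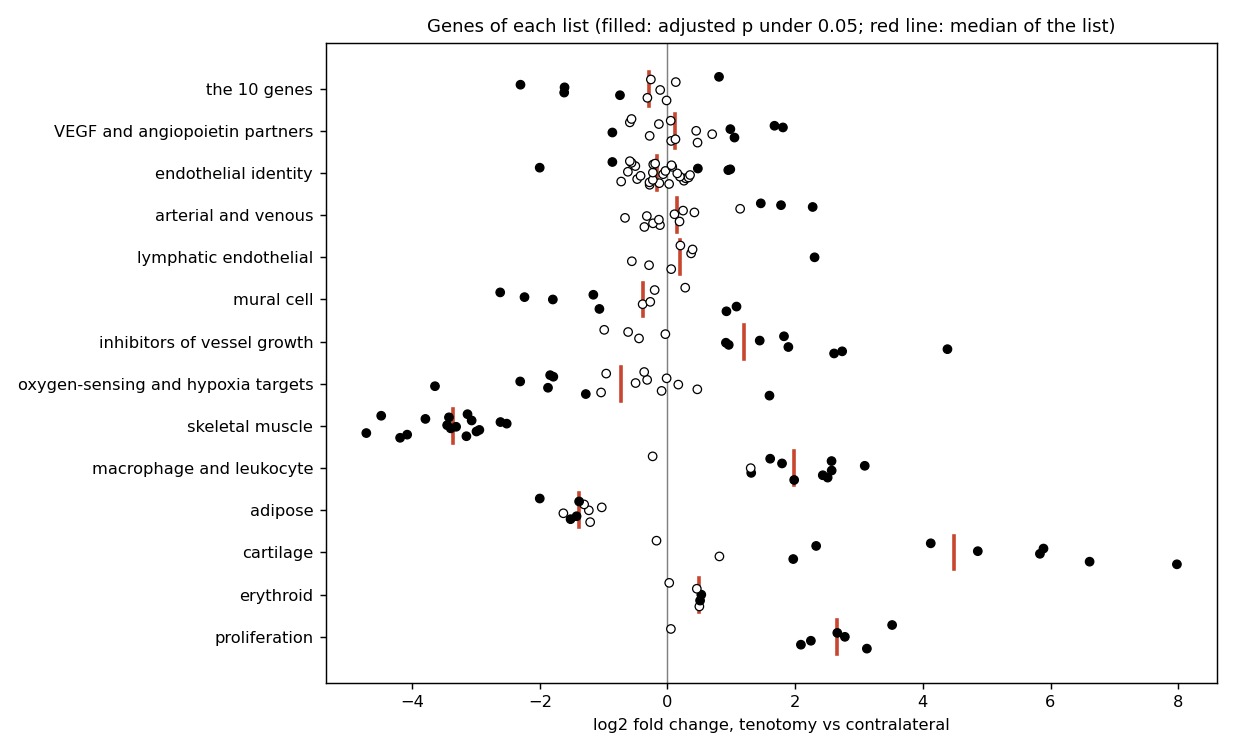
Log2 fold change, tenotomy against contralateral, of each tested gene of the 10 and of the 13 comparison lists, filled where the edgeR adjusted p is under 0.05, with the median of each list as a red line. Skeletal muscle genes all lie under -2.5, the 10 genes and the endothelial lists straddle 0, and inhibitors of vessel growth lie mostly above it.

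The genes whose course over the 7 libraries was most like the mean of Pecam1, Cdh5, Kdr, Flt1 and Tek were sought by the root mean square difference of centred log2 CPM. Among genes with a mean log2 CPM of at least 3, the closest were Kitl (0.041), Rora (0.055), Otud4 (0.066), Ncor1 (0.068) and Dag1 (0.068). Kitl encodes stem cell factor. Its log2 CPM were 3.19 to 3.30 in the contralateral, 2.73 and 2.81 in the tenotomy, and 2.82 and 3.40 in the uninjured libraries. The search used all 7 libraries, so likeness over the uninjured replicates was built into the choice of these genes. The mean also joins unlike courses, with log2 fold changes from contralateral to tenotomy of -0.01 for Pecam1 and -1.62 for Flt1.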

How the data were processed

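RNA was measured by sequencing in 7 libraries, and each deposited table lists 103639 transcripts with estimated counts and TPM, per the file headers. Estimated counts were made by the authors and are not normalised; the deposited TPM are scaled by effective length. The submitters' processing notes name kallisto and FastQC 0.11.4, with no role or order, and the build GRCh38, which is human, whereas the transcript IDs are mouse Ensembl IDs. Of these IDs, 101510 matched GENCODE M21 (GRCm38) without their version. Estimated counts were summed per gene and rounded, and the 2129 unmatched transcripts stayed single features. Isoform shares and TPM depend on how the deposited estimates divide reads among isoforms, and gene sums do not. Because 5 features hold most counts, the CPM of all others are low.

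Genes were filtered with filterByExpr (minimum count 10) and tested with edgeR 4.0.16 (R 4.3.3; TMM, quasi-likelihood, 1 fit of 3 group means, Benjamini-Hochberg, threshold 0.05). The SE is the log2 fold change divided by the square root of F. Log2 CPM used a prior count of 2. Ratios and shares were compared by exact permutation (2-sided, 10 splits, Python 3.11.15). The scripts were tested on simulated data. Replicates were numbered in accession order, which pairs no libraries. Numbers in the sample titles run in 3 blocks, which no label calls a batch; the first holds the contralateral libraries and tenotomy replicate 1, the next tenotomy replicate 2 and uninjured replicate 1 (adjacent numbers), and the last uninjured replicate 2.

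The members and lists were chosen with earlier results of these data known. Named were the members, 8 further genes whatever their values, up to 3 genes per list (largest change among those called with no overlap) and the 5 most alike genes; other named genes (Ptprb, Sema3e, Col18a1, Epas1, Hif1a, Pdgfrb, Cspg4, Prox1, Lyve1, Reln, Ccl21a, Timp3, Spry4, Ckm, and Tnmd and Scx as tissue checks) were chosen after their values were seen. Alternatives were other scalings, DESeq2 1.42.0, limma-voom (limma 3.58.1), no filter, the fit of only the groups compared, length-scaled TPM, totals without the 5 largest features, and leaving out each library. Promoters of Pecam1, Cdh5, Angpt1 and Angpt2 were not used here.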

Additional observations from a re-analysis of the deposited data

How the results depend on the processing

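Of 500 values of the 10 genes under alternatives in the 3 comparisons, 456 kept their side of the threshold, 13 passed it newly and 31 no longer passed. None that was called changed sign. Values near 0 that were not called could change sign and still count among the 456. For tenotomy against contralateral the log2 fold change ranged from -0.05 to 0.10 for Pecam1 and from -0.02 to 0.27 for Vegfc. For tenotomy against contralateral, 5 members were called; length-scaled TPM gave 3, and leaving out 1 library gave 0 to 6. The count was 0 without any 1 of the 5 contralateral and tenotomy libraries, where all genes called also fell from 4643 to 0, and the adjusted p of the 5 members rose to between 0.0502 and 0.218. All genes called were 7364 in the fit of only these groups, and 7326 and 7324 without uninjured replicates 1 and 2. In the fit of only these groups, each of its 5 libraries was also left out in turn, added after seeing the data. Flt1, Vegfa, Vegfb, Kdr and Angpt2 then kept their direction. The log2 fold change of Angpt2 ranged from 0.59 to 1.01, and its call was lost without tenotomy replicate 2. Kdr was also lost with length-scaled TPM (adjusted p = 0.0717) and without the 5 largest features (0.0516). For tenotomy against uninjured the 0 calls became 0 to 5 on leaving out 1 library (5 without uninjured replicate 1), and for contralateral against uninjured 0 to 3 (3 without uninjured replicate 2). Leaving out 1 uninjured or 1 tenotomy library leaves 1 in that group, which is assumed to vary like the other groups. All genes called in these comparisons were 0, against 145 and 223 with DESeq2, 15 and 337 with no filter, 4360 and 129 without uninjured replicate 1, and 11 and 5430 without replicate 2. The difference in the share of the short Flt1 transcript was -0.0385 to 4.04 percentage points on leaving out 1 library, and reversed to -0.0385 without tenotomy replicate 1. The log2 ratio of Angpt2 to Angpt1 differed by 0.71 to 0.78 on leaving out 1 library and by 1.07 with estimated counts. Except where a left-out library alone makes fewer samples, the cause of these moves was not tested. No paired analysis was possible because the labels give no replicate numbers that link libraries of different groups. With 2 or 3 libraries a group and 15 to 22 counts for Vegfc, small changes were not detectable.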
